A study of Mus musculus with 5 samples.

Results

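The citric acid cycle oxidizes the acetyl group that pyruvate, fatty acids and amino acids deliver to mitochondria, and passes the electrons to the respiratory chain. Its intermediates also leave the mitochondrion for the synthesis of lipids, amino acids and heme. Quiescent hematopoietic stem cells (HSCs) are known for relying largely on glycolysis, and mitochondrial oxidation is known to increase when they divide and differentiate. The transcripts described here encode enzymes of the cycle and of the step by which pyruvate enters it. They were taken by name from a list of 9 enzymes, by a rule that uses no measured value. Of these, 7 were analysed among the 24046 gene symbols of the table (Cs, Ogdh, Dlst, Suclg1, Fh1, Mdh2 and Pdha1), and the other two were not analysed here. All 7 passed the filter on low values, which 13661 genes passed.

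Bulk RNA-seq measured HSCs that developed in transplanted mice, to ask what loss of the RNA-binding protein SYNCRIP does to their transcripts. Donor marrow was Syncrip flox/flox, Mx1 Cre- in the 3 libraries called WT here (WT 1, WT 2 and WT 3) and Syncrip flox/flox, Mx1 Cre+ in the 2 called KO (KO 2 and KO 3). Both genotypes carried the floxed alleles, in which exons 3 and 4 are flanked, and both received polyinosinic:polycytidylic acid (pIpC) 6 weeks after transplantation, an interferon inducer that switches on Cre from the Mx1 promoter. That promoter is not specific to HSCs, so other donor blood cells could lose Syncrip as well. Per the study's methods, donors of both sexes were 6 to 8 weeks old, as were the lethally irradiated female CD45.1 recipients. HSCs of donor origin (CD45.2+) that were Lin-, Sca1+ and cKit+, as well as CD150+ and CD48-, were sorted from marrow 9 weeks after transplantation, which was 3 weeks after pIpC. Whether a library held 1 animal or a pool was not stated, so p-values measure the spread between these libraries, which may be partly technical.

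Values are normalized read counts, the reads of a gene divided by a size factor of the library. The deepest library was WT 3 (22779536 reads) and the shallowest were KO 2 and KO 3 (18308876 and 12539599 reads). Syncrip itself lay between 1440 and 1944 in WT and at 294 and 343 in KO, so its level followed the labels. The HSC genes checked (9 of 9, among them Kit, Procr and Mecom) were detected in every library. So was Cd48, whose protein the sort selected against, at 601 to 768 in WT, 459 in KO 2 and 191 in KO 3. Transcripts of adipocytes stood out in KO 2, where 10 adipocyte markers took 0.109% of reads against 0.00115% to 0.00396% in the other libraries. There, 8 brown adipocyte markers took 0.0628% against at most 0.00146%, and Ucp1 and Cidea were at 0 in the other 4 libraries. KO 2 was the highest library for 9 of the 10 adipocyte and 6 of the 8 brown adipocyte markers. Brown adipocytes are rich in mitochondria. Erythroid markers (6 genes) were also highest in KO 2 (0.0753% against 0.0430% to 0.0602% elsewhere, with 4 of the 6 highest there). Stroma markers (5 genes) were highest in WT 2 (0.00901% against at most 0.000825% elsewhere). Neutrophil and myeloid markers (10 genes) took 5.46% to 7.44% of reads in WT and KO 2 and 2.64% in KO 3. In KO 3, Elane and Prtn3 (71896.9 and 23796.5) stayed within their WT ranges, while the others of that list were below every WT library. Megakaryocyte markers (4 genes) took 0.0198% to 0.0371% in WT and KO 2 and 0.0824% in KO 3, and T and B cell markers at most 0.00123% in any library. These values bear on every comparison below that rests on 1 library, and their part in the results was not tested. In bulk RNA, fewer cells of a type and less RNA per cell cannot be told apart.

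The promoters of the members differed in sequence. RefSeq start sites (GRCm38.p6) were matched by symbol for all 7, with 6 start sites for Ogdh and 1 for each of the others, and the 250 bases before each start were searched on both strands. Those of Cs, Suclg1 and Mdh2 are shown because these genes had the lowest fold change (Cs), the highest (Suclg1) and the only values in which both KO libraries lay beyond all WT libraries (Mdh2). Capitals mark the GC box GGGCGG or its reverse complement. They also mark the CCAAT box, which is named by its letters, on either strand. The last motif in capitals is the palindrome CTCGCGAG. Each sequence runs 5′ to 3′ on the strand of its gene. GENCODE M21, from which gene coordinates are given below, starts Mdh2 169 bases and Suclg1 123 bases upstream of the RefSeq start, so their sequences are shown up to the base before the GENCODE start (81 and 127 bases). That of Cs is the whole window.

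Cs, chr10:128337477-128337726, plus strand: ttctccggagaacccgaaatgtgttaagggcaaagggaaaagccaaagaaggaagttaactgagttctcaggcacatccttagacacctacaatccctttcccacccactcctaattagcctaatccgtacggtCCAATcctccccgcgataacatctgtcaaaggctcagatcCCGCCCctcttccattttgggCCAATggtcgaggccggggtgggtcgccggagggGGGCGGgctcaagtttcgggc
Suclg1, chr6:73248255-73248381, plus strand: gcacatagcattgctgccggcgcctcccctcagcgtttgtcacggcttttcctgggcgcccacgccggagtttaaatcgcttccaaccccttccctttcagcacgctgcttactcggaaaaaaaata
Mdh2, chr5:135778399-135778479, plus strand: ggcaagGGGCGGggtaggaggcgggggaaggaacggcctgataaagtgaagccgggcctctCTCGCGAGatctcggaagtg

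The Cs window held 2 GC boxes and 2 CCAAT boxes, all within 116 bases of the RefSeq start. None of these motifs was in the Suclg1 window. In the Mdh2 window, CTCGCGAG occurred 3 times, at 189, 62 and 28 bases before the RefSeq start. The copies at 62 and 28 bases lie inside the first exon of GENCODE, and the one at 189 is upstream of both starts. Of all 32851 promoter windows, 0.761% held this palindrome at least 1 time and 2 held it 3 times or more. It was searched for after the Mdh2 sequence had been read, and no other member had it. GGGCGG was in at least 1 window of 5 of the 7 members (32.7% of all windows), CCAAT in those of Cs, Fh1 and Ogdh (33.8% of all windows) and TATAAA in none (12.4% of all windows). Members were counted by gene and the shares by window, so Ogdh, with several windows, had more occasions to match. A match is a description of the letters and not a binding site.

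In WT HSCs, Mdh2 had the highest transcript level of the 7 when values were set per kilobase (kb) of the longest annotated transcript. Its level was 6960 ± 492 normalized reads per kb (SD, n = 3). Cs followed at 2335 ± 216 and Ogdh at 1926 ± 238, and the ranges of these 2 genes overlapped. Dlst (1119 ± 115), Pdha1 (1070 ± 145) and Suclg1 (994 ± 111) formed a group in which neighbors overlapped. Fh1 was lowest at 792 ± 50.8, below each WT value of Suclg1. In KO 2 and KO 3 the level of Mdh2 per kb was 8553 and 8586, and it remained the highest of the 7 in both. Each member had between 1292 and 13878 reads in each library. Poisson counting error was 2.78% of the value at the fewest reads, and reads amplified by PCR can vary more than that.

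None of the 7 transcripts differed between KO and WT at a Benjamini-Hochberg adjusted p under 0.05 in limma, the test across all genes on log2(value + 1). Syncrip was the only gene that did, 0.00732% of those tested. At an unadjusted p under 0.05, 0 of the 7 passed, against 27.8% of all genes. The 7 log2 fold changes (KO minus WT) ran from -0.25 to 0.41, with 3 above 0 and 4 below, and their median was -0.07 against 0.02 over all tested genes. The median size of the change, without its sign, was 0.12 on the log2 scale in the members and 0.47 over all genes. The members were also more abundant than most genes (median WT value 3603 against 565) and had a smaller median SE (0.21 against 0.29), so this is not a comparison of like genes. All 7 intervals (95%) lay inside plus or minus 1, so that a 2-fold difference in either direction was outside them, as for 37.7% of all genes. DESeq2 and edgeR on the recovered reads also passed 0 of the 7, by adjusted or unadjusted p. By adjusted p, DESeq2 passed 19.3% of the 11837 genes to which its own filter gave one, or 16.7% of the 13661 genes tested by limma, and edgeR passed 0.0146% of those 13661. By an unadjusted p under 0.05 they passed 30.4% and 27.2% of the 13661.

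**Figure D1:**
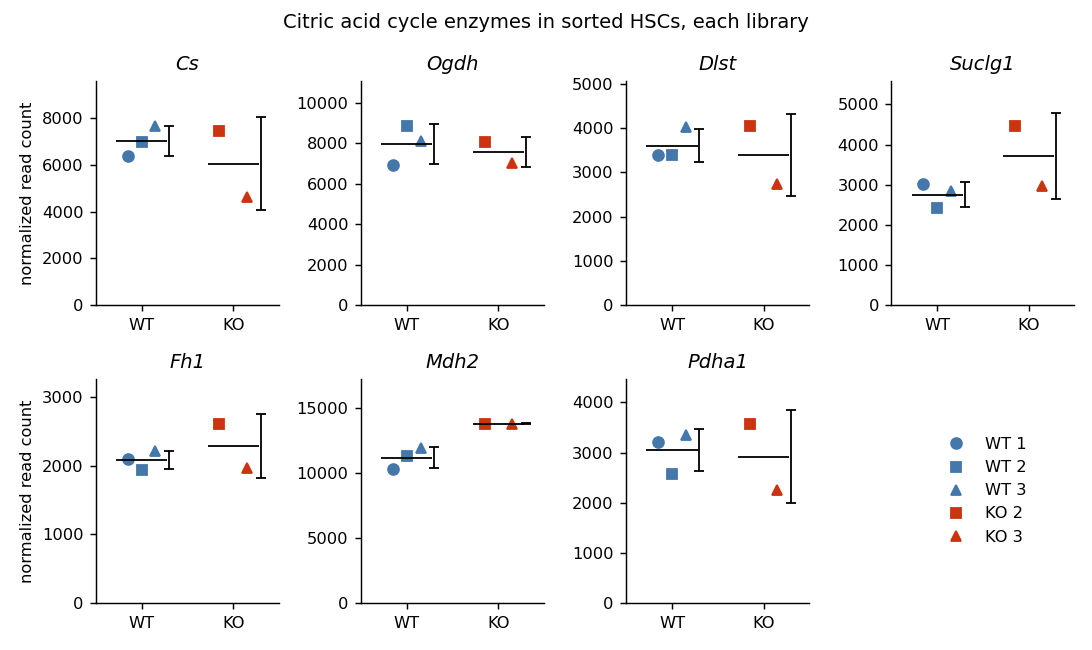
Normalized read counts (y axes, from 0) of the 7 citric acid cycle enzymes in each WT (blue) and KO (red) library, with group means (lines) and SD (bars; n = 3 WT and 2 KO). Mdh2 is the gene whose 2 KO values (13736 and 13790) both lie above its highest WT value (11893), and in the other 6 genes the groups overlap.

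Cs encodes citrate synthase, which joins acetyl-CoA to oxaloacetate as the cycle's entry reaction. The gene lies on chromosome 10 (128337734 to 128362479, plus strand, mm10). Cs read 6380, 6983 and 7675 in WT 1, WT 2 and WT 3, against 7475 in KO 2 and 4647 in KO 3. KO 2 lay among the WT libraries, while KO 3 was the lowest of the 5, at 66.3% of the WT mean. WT libraries averaged 7013 ± 648 (SD, n = 3), and KO libraries averaged 6061 ± 2000 (SD, n = 2). The log2 fold change came to -0.25 (95% interval -0.76 to 0.27, SE 0.22, limma adjusted p = 0.493). It was -0.59 with KO 3 as the only KO library (limma adjusted p = 0.0608) and 0.10 with KO 2 as the only one, so the sign rested on KO 3.

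Ogdh and Dlst encode E1 and E2 of the 2-oxoglutarate dehydrogenase complex, the 2-oxoglutarate-oxidizing and succinyl-transferring subunits. Ogdh (chromosome 11, 6291633 to 6356642, plus strand) read 6906, 8854 and 8083 in WT 1, WT 2 and WT 3, and 8068 and 7022 in KO 2 and KO 3. Both KO values lay inside the WT range. The Ogdh log2 fold change came to -0.07 (95% interval -0.48 to 0.34, SE 0.18, limma adjusted p = 0.817). Its sign turned without KO 3 (0.03) and without WT 2 (0.01). Dlst (chromosome 12, 85110833 to 85134845, plus strand) read 3387, 3393 and 4029 in WT and 4053 and 2732 in KO 2 and KO 3. For Dlst the KO libraries bracketed all WT libraries, KO 2 above them and KO 3 below. Its log2 fold change came to -0.11 (95% interval -0.59 to 0.37, SE 0.21, limma adjusted p = 0.756), and -0.39 and 0.17 with KO 3 or KO 2 as the only KO library.

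Suclg1, the alpha subunit of succinyl-CoA synthetase (which makes ATP or GTP with either of 2 beta subunits), had the highest fold change of the members. On chromosome 6 (73248382 to 73276911, plus strand), it read 3008, 2411 and 2836 in the WT libraries, 4466 in KO 2 and 2968 in KO 3. KO 2 was above all other libraries at 162% of the WT mean, but KO 3 was within the WT range. Its log2 difference came to 0.41 (95% interval -0.09 to 0.91, SE 0.22, limma adjusted p = 0.251), and 0.12 with KO 3 as the only KO library. After a linear trend on length and GC of the transcripts had been taken out of every library, the value was 0.75 (limma adjusted p = 0.149).

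Fh1 encodes fumarate hydratase, which turns fumarate into malate. This gene (chromosome 1, 175600374 to 175625635, minus strand) had 2104, 1945 and 2211 normalized reads in WT 1, WT 2 and WT 3, and 2617 and 1962 in KO 2 and KO 3. Only KO 2 stood outside the WT range. The log2 fold change of Fh1 came to 0.12 (95% interval -0.32 to 0.56, SE 0.19, limma adjusted p = 0.703), and it was -0.09 without KO 2. Fh1 overlaps Kmo, a gene on the opposite strand with 13.7 to 75.4 normalized reads per library. The overlap is one of gene spans with their introns, and whether the genes share exons was not checked. Reads of any exons they share cannot be told apart.

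Mdh2, mitochondrial malate dehydrogenase, regenerates the oxaloacetate that citrate synthase uses. It lies on chromosome 5 (135778480 to 135790398, plus strand). WT 1, WT 2 and WT 3 had 10328, 11311 and 11893 normalized reads of Mdh2, and KO 2 and KO 3 had 13736 and 13790. The KO values nearly coincided and both exceeded each WT value, the one member of 7 for which the groups did not overlap. Across all tested genes the groups did not overlap for 47.1%, and for 23.9% both KO libraries were above all WT libraries. WT libraries averaged 11177 ± 791 (SD, n = 3), and KO libraries averaged 13763 ± 37.8 (SD, n = 2), 123% of WT. On the log2 scale the Mdh2 difference came to 0.30 (95% interval -0.07 to 0.68, SE 0.16, limma adjusted p = 0.258). It stayed at 0.31 and 0.30 with KO 3 or KO 2 as the only KO library.

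Pdha1 encodes the E1 alpha subunit of pyruvate dehydrogenase, which turns pyruvate into acetyl-CoA ahead of the cycle. It is X-linked (chromosome X, 160122209 to 160138413, minus strand) and read 3212, 2578 and 3352 in WT 1, WT 2 and WT 3, against 3577 in KO 2 and 2257 in KO 3. As for Dlst, the KO values lay on either side of the WT range. For Pdha1 the difference on the log2 scale came to -0.09 (95% interval -0.63 to 0.44, SE 0.23, limma adjusted p = 0.819), -0.42 with KO 3 as the only KO library and 0.24 with KO 2. It was also 0.23 once the length and GC trend had been removed. Pdha1 overlaps Map3k15 on the opposite strand, which had 999 to 1423 normalized reads in WT, 1216 in KO 2 and 468 in KO 3, again lowest in KO 3. The use of strand was not stated, so reads in any shared exons cannot be told apart.

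**Figure D2:**
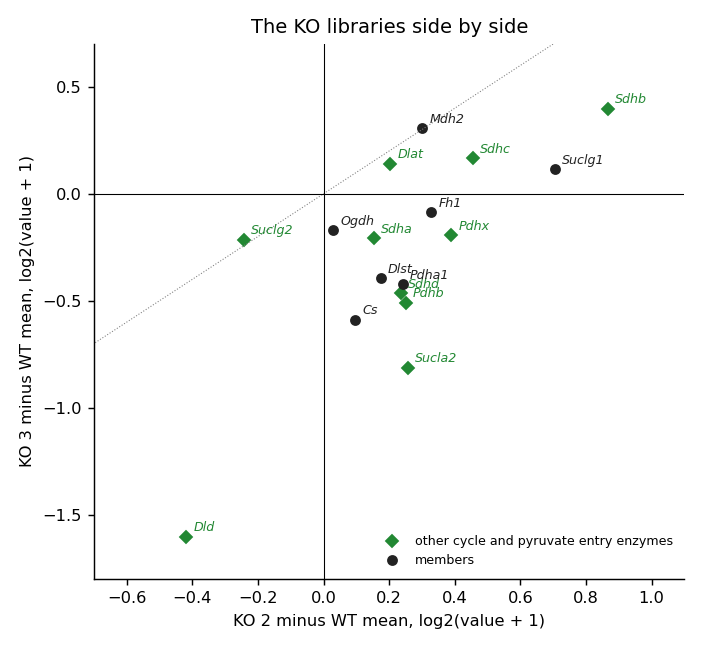
Difference of KO 2 (x axis) and of KO 3 (y axis) from the WT mean, on the log2(value + 1) scale, for the 7 members (black circles) and 10 other enzymes of the cycle and of pyruvate entry (green diamonds); the dotted line marks equal differences. All 7 members lie right of 0, while 5 of them lie below 0 on the y axis, and Mdh2 lies on the line.

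KO 2 was above KO 3 for 6 of the 7 members, against 50.2% of all tested genes. KO 2 was above the WT mean for 7 of 7 (50.9% of all tested genes) and above every WT library for 5 of 7 (32.8% of all genes). KO 3 was below the WT mean for 5 of 7 (49.2% of all genes) and below every WT library for Cs, Dlst and Pdha1, 3 of 7 against 38.3% of all genes. The median member differed from the WT mean by 0.24 in KO 2 and -0.17 in KO 3 on the log2 scale, while the medians over all genes were 0.01 and 0.02. KO 2 exceeded KO 3 by 1.61-fold for Cs, 1.59-fold for Pdha1, 1.51-fold for Suclg1 and 1.48-fold for Dlst. For Mdh2 that ratio was 0.996. The median distance between the KO libraries, without its sign, was 0.57 on the log2 scale in the members and 0.47 over all genes. The 7 members together took 0.194%, 0.199% and 0.205% of reads in WT 1, WT 2 and WT 3, 0.234% in KO 2 and 0.186% in KO 3. KO 2 was the library with the adipocyte transcripts. KO 3 was the shallowest one. It also had the lowest share of neutrophil and myeloid markers (2.64%) and the highest of megakaryocyte markers (0.0824%). The part of any of these in the differences between the KO libraries was not tested.

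Members also varied together to different degrees over the 5 libraries, given here as a description, since every r rests on the same 5 libraries and their depth. Pearson's r of log2 values was 0.95 between Cs and Dlst, 0.91 between Dlst and Pdha1 and 0.90 between Suclg1 and Fh1. Next came Fh1 and Pdha1 (0.83), Cs and Pdha1 (0.80) and Dlst and Fh1 (0.76). Some of the remaining pairs were weakly or oppositely related. For Mdh2 the r ran from -0.30 (Cs) to 0.56 (Suclg1), for Ogdh from -0.15 (Suclg1) to 0.67 (Cs), and between Cs and Suclg1 it was 0.18. The genes outside the lists whose log2 values were most like the members' mean standardized profile were Per3 (r = 0.998), Prdx5 (r = 0.997), Cib2 (r = 0.996), Dpf3 (r = 0.994) and Phf5a (r = 0.994; n = 5 libraries each). Prdx5, a peroxiredoxin found in mitochondria and elsewhere, had 9576, 9558 and 11129 normalized reads in WT and 13105 and 8341 in KO 2 and KO 3. Its order, highest in KO 2 and lowest in KO 3, is that of the profile it was picked by. Of the 13619 tested genes outside the lists, 145 had r of 0.9 or more.

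Other enzymes of the cycle and of pyruvate entry were examined next, 10 genes that complete the complexes of the members or catalyze neighboring reactions. By limma, 0 of the 10 passed the adjusted p, and 2 of the 10 had an unadjusted p under 0.05 (Dld and Sdhb), or 20.0% against 27.8% of all genes. The groups did not overlap for 4 of the 10, Sdhb, Sdhc and Dlat with both KO values above WT and Dld with both below (over all genes 23.9% were above and 23.2% below). DESeq2 passed Sdhb alone of the 10.

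Sdhb, the iron-sulfur subunit of succinate dehydrogenase, had 3596, 3403 and 3873 normalized reads in WT and 6601 and 4764 in KO 2 and KO 3. Both KO values were above the highest WT value. Its log2 fold change came to 0.63 (95% interval 0.19 to 1.07, SE 0.19, limma adjusted p = 0.0966), with a DESeq2 adjusted p of 0.0216. It was 0.40 with KO 3 as the only KO library and 0.41 after the length and GC correction (limma adjusted p = 0.144 and 0.278). The other subunits of that complex gave log2 fold changes of 0.31 (Sdhc), -0.03 (Sdha) and -0.12 (Sdhd), none past the threshold, and the signs of Sdha and Sdhd turned without KO 3. Dlat, the E2 subunit of pyruvate dehydrogenase, had 2155, 2520 and 2621 normalized reads in WT and 2791 and 2673 in KO 2 and KO 3, just above WT in both. Its log2 fold change came to 0.17 (SE 0.17, limma adjusted p = 0.538).

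Dld encodes E3, dihydrolipoamide dehydrogenase, the subunit that the 2-oxoglutarate and pyruvate dehydrogenase complexes share. It had the lowest fold change of the 10. Dld read 2837, 1902 and 2795 in WT 1, WT 2 and WT 3, against 1848 in KO 2 and 813 in KO 3. KO 2 lay just under WT 2, and KO 3 was at 32.4% of the WT mean. For Dld the difference came to -1.01 (95% interval -1.79 to -0.23, SE 0.34, limma adjusted p = 0.114). With KO 3 as the only KO library it was -1.60 (limma adjusted p = 0.0127), in a fit that passed 22.1% of all genes. Under the length and GC correction it was -0.34 (limma adjusted p = 0.446). The longest Dld transcript has a GC content of 40.6%, against 45.3% to 52.5% in the 7 members.

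**Figure D3:**
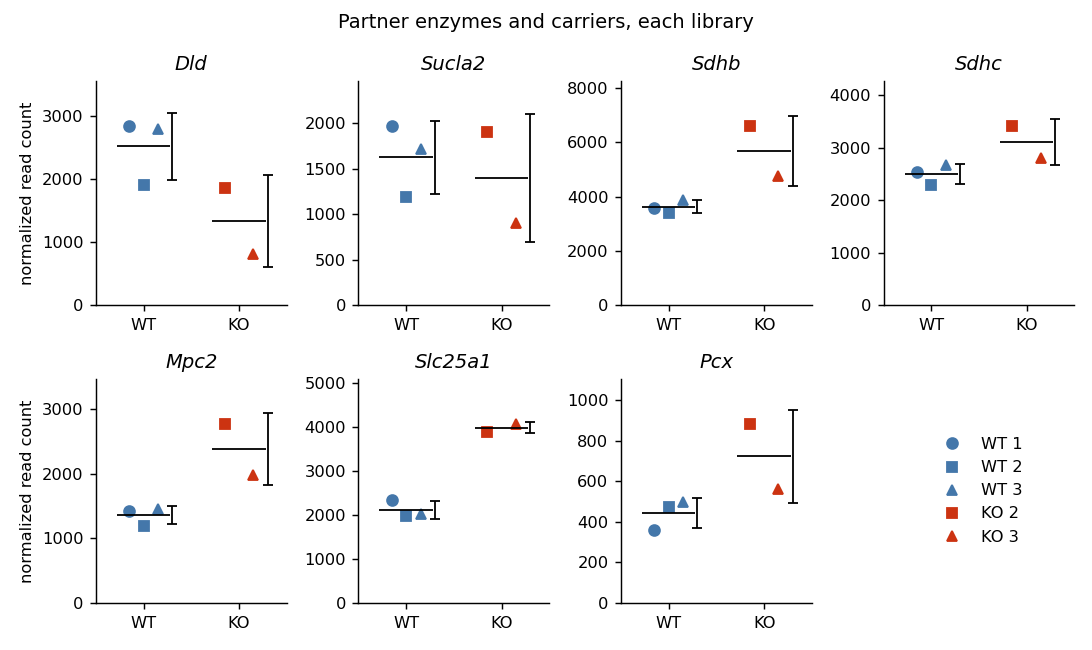
Normalized read counts (y axes, from 0) of 7 genes of the pathway lists in each WT (blue) and KO (red) library, with group means (lines) and SD (bars; n = 3 WT and 2 KO). Dld is lowest in KO 3 (813), Slc25a1 is above WT in both KO libraries (3899 and 4082), and for Sucla2 the KO values lie inside and below the WT range (1903 and 905).

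For the beta subunits of succinyl-CoA synthetase, the log2 fold changes were -0.28 for Sucla2 (SE 0.34, limma adjusted p = 0.612), the ATP-forming one, and -0.23 for Suclg2 (SE 0.22, limma adjusted p = 0.508), the GTP-forming one, while their partner Suclg1 was at 0.41. Sucla2 read 1974, 1186 and 1723 in WT and 1903 and 905 in KO 2 and KO 3. Ratios of partner transcripts within a library, each per kb, were therefore compared for 5 pairs, a choice made once the values were known. Suclg1 to Sucla2 was 1.23, 1.64 and 1.33 in WT and 1.89 and 2.64 in KO 2 and KO 3. Dlst to Dld was 0.943, 1.41 and 1.14 in WT and 1.73 and 2.66 in KO. In these 2 pairs both KO ratios lay above all WT ratios, with differences of 0.69 and 0.90 on the log2 scale. A share over other gene pairs was not computed, and for single genes the groups did not overlap for 47.1% of those tested. For Suclg1 to Sucla2 the difference was 0.45 in KO 2 and 0.93 in KO 3, and 0.53 over both libraries after the length and GC correction. For Dlst to Dld it was 0.59 in KO 2 and 1.21 in KO 3, and the same correction lowered the joint value to 0.32.

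No test was made on these ratios, since the pairs were picked with their values known. Mdh2 to Mdh1 was 2.84, 3.88 and 3.54 in WT and 3.86 and 6.90 in KO, where KO 2 was inside the WT range. Pdha1 to Pdhb, both subunits of E1 of pyruvate dehydrogenase, hardly varied at 1.07, 1.04 and 1.06 in WT and 1.05 and 1.12 in KO 2 and KO 3. Ogdh to Dlst lay between 1.55 and 2.04 in every library. A ratio shows unequal change of the 2 transcripts and not which of them changed.

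Regulators of pyruvate entry (carriers, kinases and phosphatases of pyruvate dehydrogenase, and pyruvate carboxylase) numbered 10, and limma passed 0 of them by adjusted p and 2 by an unadjusted p under 0.05 (20.0% against 27.8% of all genes). Mpc2, a subunit of the mitochondrial pyruvate carrier, had 1424, 1196 and 1459 normalized reads in WT and 2772 and 1980 in KO 2 and KO 3. Both KO values were above WT. Its log2 fold change came to 0.79 (95% interval 0.31 to 1.27, SE 0.21, limma adjusted p = 0.0859), with a DESeq2 adjusted p of 0.010, the only one of the 10 that DESeq2 passed. The length and GC correction raised it to 1.27 (limma adjusted p = 0.0935). Mpc1, the other carrier subunit, gave -0.08 (SE 0.40, limma adjusted p = 0.905), with 1061 normalized reads in KO 2 and 395 in KO 3, and its sign depended on the library left out and on the tool. Pcx, pyruvate carboxylase, which refills oxaloacetate, read 359, 472 and 499 in WT and 885 and 562 in KO. The Pcx log2 fold change came to 0.68 (SE 0.28, limma adjusted p = 0.161) and 0.11 after the length and GC correction. It was 0.36 with KO 3 as the only KO library and 1.01 with KO 2.

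The kinase transcript Pdk4, whose product inactivates pyruvate dehydrogenase, was at 400 in KO 2 and at 0 to 25.0 in the other 4 libraries. Its level thus rested on the library with the adipocyte markers, in which Fabp4 and Adipoq had 7687 and 959 normalized reads, and whether these came from the same cells was not tested. Pdp1, a phosphatase that reactivates the enzyme, read 434, 274 and 356 in WT, 92.5 in KO 2 and 374 in KO 3. KO 2 alone was low. Its log2 fold change came to -0.90 (SE 0.54, limma adjusted p = 0.298). Pdpr, the phosphatase's regulatory subunit, gave -0.51 and the kinase Pdk3 -0.19 on the log2 scale, both with the KO values under all WT values and neither past the threshold (limma adjusted p = 0.313 and 0.468).

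Cytosolic counterparts and enzymes or carriers that feed the cycle made a list of 11 genes, of which limma passed 0 by adjusted p and 2 by an unadjusted p under 0.05 (18.2% against 27.8% of all genes). Slc25a1 encodes the carrier that exports citrate from mitochondria. It read 2349, 1987 and 2023 in WT 1, WT 2 and WT 3 and 3899 and 4082 in KO 2 and KO 3, close to each other and above all WT values. On the log2 scale KO minus WT came to 0.92 (95% interval 0.53 to 1.31, SE 0.17, limma adjusted p = 0.0815). DESeq2 passed it (adjusted p = 0.000123), as it did 16.7% of all tested genes. The log2 difference was 0.95 with KO 3 as the only KO library and 0.88 with KO 2. After the length and GC correction the difference was 0.28 (limma adjusted p = 0.439), for a transcript whose GC content is 59.1%.

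Me1, the cytosolic malic enzyme, was low in WT with 23.3, 8.68 and 3.43 normalized reads, at 244 in KO 2 and at 25.8 in KO 3. DESeq2 passed it too (adjusted p = 0.0106, limma adjusted p = 0.129), on a level carried by KO 2. With KO 3 as the only KO library the Me1 log2 fold change was 1.40 (limma adjusted p = 0.421). Mdh1, the cytosolic malate dehydrogenase, read 4804, 3852 and 4443 in WT and 4699 and 2641 in KO 2 and KO 3. Its log2 fold change came to -0.30 (SE 0.25, limma adjusted p = 0.450), -0.72 with KO 3 as the only KO library and 0.11 with KO 2. The mitochondrial enzyme Mdh2 was thus above WT in KO 3 while the cytosolic one was below it there. Several of these genes overlap the span of another on the opposite strand, and reads of any shared exons cannot be told apart. Mdh1 overlaps Wdpcp (120 to 215 normalized reads per library), Me1 overlaps A330041J22Rik (0 to 8.22) and Pdpr overlaps 9430091E24Rik (31.9 to 105). Mpc1 overlaps 4930506C21Rik, which had 409 to 572 in WT, 688 in KO 2 and 208 in KO 3. Pcx overlaps Lrfn4, which had 77.1 to 266 in WT, 381 in KO 2 and 873 in KO 3. The mitochondrial malic enzyme Me2, the cytosolic aspartate aminotransferase Got1 and the dicarboxylate carrier Slc25a10 gave -0.24, -0.17 and 0.23 on the log2 scale, none past the threshold.

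**Figure D4:**
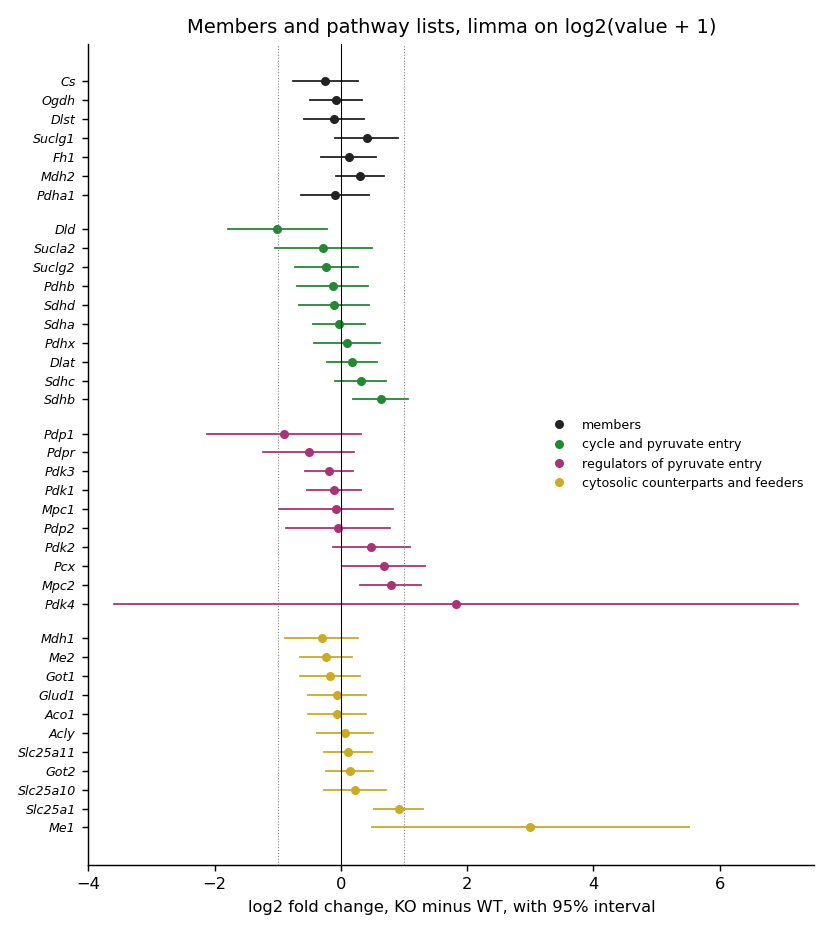
Log2 fold change (x axis, KO minus WT, log2(value + 1) scale) with its 95% interval for the 7 members (black) and the 31 tested genes of the 3 pathway lists (green, purple and yellow); dotted lines mark a 2-fold difference. The members' intervals all lie between the dotted lines and cross 0, while those of Dld, Sdhb, Mpc2, Slc25a1 and Me1 among others do not cross 0 before adjustment.

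Over the 31 genes of the 3 lists, limma passed 0 and DESeq2 passed Sdhb, Mpc2, Me1 and Slc25a1, against the 16.7% of the 13661 tested genes that DESeq2 passed. The median log2 fold changes were -0.07, -0.07 and 0.07 in the lists of cycle enzymes, regulators and feeders, beside -0.07 in the members and 0.02 over all genes. With transcript length and GC content corrected, the median of the 7 members was 0.23, that of the other cycle enzymes 0.19, that of the regulators 0.09, that of the feeders -0.11 and that of all genes -0.01. Under this correction none of the 7 passed the adjusted p either.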

How the data were processed

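The authors deposited a table of normalized signal, which holds for each of 24046 gene symbols and 5 libraries (SMART-Seq v4 kit) the read count divided by a size factor. The submitters' processing notes name mm10, STAR, featureCounts and DESeq2, and versions were not given in the sources used here. Their second file, of their own comparison (log2 fold change, p-value, adjusted p-value), was not used. Dividing each column by its smallest step gave whole reads for 100% of values (tolerance 0.01 reads).

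WT and KO were compared with limma 3.58.1 (lmFit, eBayes with trend; R 4.3.3) on log2(value + 1), which understates changes of low genes. Tested were the 13661 genes that reached a value of 10 in 2 or more libraries, with Benjamini-Hochberg adjustment over all of them. DESeq2 1.42.0 and edgeR 4.0.16 were run on recovered reads as alternatives, besides other scalings, filters, weights and the removal of each library. Length and GC content came from the longest GENCODE M21 transcript (13015 of the tested genes).

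The members and lists were chosen with earlier results of these data known. Named were all members, the 3 highest and 3 lowest fold changes of each list, Mdh1, Syncrip and the 5 genes most like the members. Further list genes and the partner ratios were named with their values known. Some listed genes are not reported here. Without molecular identifiers, reads do not count molecules, so counting errors given are lower bounds.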

Additional observations from a re-analysis of the deposited data

How the results depend on the processing

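Under all 16 alternatives, 0 of the 7 members passed the adjusted p, and the lowest adjusted p was 0.0608 (Cs without KO replicate 2). Of the 112 member values under alternatives, 105 kept their sign. The median log2 fold change of the members was 0.23 with the length and GC trend removed, and from -0.17 to 0.24 when a library was left out, with the highest value without KO 3. A single remaining KO library is assumed to vary like the WT libraries. The list counts stayed at 0 except with DESeq2, which passed 1 other cycle enzyme, 1 regulator and 2 feeders, and when 1 library was left out, where they ran from 0 to 1 for cycle enzymes and from 0 to 2 for feeders (highest without KO 2). Over all genes, limma passed 3024 without KO 2, 4 without KO 3, 0 without any 1 WT library and 1 with all libraries, and DESeq2 passed 2290 of the 11837 genes it gave an adjusted p.

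Signs turned as follows. When a library was left out, log2 fold changes ran from -0.59 to 0.10 (Cs), from -0.17 to 0.029 (Ogdh), from -0.39 to 0.17 (Dlst), from -0.42 to 0.24 (Pdha1), from -0.81 to 0.26 (Sucla2), from -0.72 to 0.11 (Mdh1), from -0.21 to 0.15 (Sdha), from -0.47 to 0.23 (Sdhd) and from -0.79 to 0.63 (Mpc1), lowest without KO 2 and highest without KO 3, and Ogdh was also at 0.011 without WT 2, Sdha at 0.033 and Mpc1 at 0.058 without WT 3. They ran from -0.087 to 0.33 (Fh1) and from -2.51 to 6.14 (Pdk4, values set by the pseudocount) in the same order, and from -1.90 to 0.10 (Pdp1) in the opposite one. Under the length and GC correction they were 0.23 (Pdha1), 0.22 (Sucla2), 0.16 (Suclg2), 0.012 (Mdh1), 0.14 (Me2), 0.074 (Sdha), 0.098 (Mpc1) and -0.53 (Slc25a10). Mpc1 was at 0.069 with DESeq2 and 0.054 with edgeR. Causes were not tested beyond what each alternative removes. Syncrip kept its sign throughout and missed the threshold without a filter (adjusted p = 0.0503), with array weights (0.0594), with limma-voom (0.0826), with the length and GC trend removed (0.138) and without any 1 WT library (0.164 to 0.210).

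WT and KO libraries share replicate numbers 2 and 3, and the labels do not say that a number marks a shared animal or batch. Deviations of same-numbered libraries had r of -0.06 and -0.18, but the deviations of only 2 KO libraries mirror each other, so these values cannot show whether the numbers pair the samples. With the replicate block, 0 of the 7 members passed, their median was -0.05, and 6 genes passed in all.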
